A study of Mus musculus with 6 samples.

Results

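The Cyp4 genes encode cytochrome P450 enzymes that add a hydroxyl group at or near the far (omega) end of fatty acids and of eicosanoids such as leukotrienes. Liver RNA of 10 of them was read in 6 mice: Cyp4a10, Cyp4a14, Cyp4a12a, Cyp4a12b, Cyp4a31, Cyp4a32, Cyp4f13, Cyp4f14, Cyp4f15 and Cyp4v3. The deposited tables list 20673 genes, and these 10 were chosen by their gene name, with the diet results of the same livers known. Their fold changes, and the calls made on them in the fit across all genes, are therefore given as a description, from which nothing is read about the members. The mice were C57BL/6J, an inbred strain with no genetic alteration named in the labels. There were 3 mice on a regular diet (RD) and 3 on a high-cholesterol diet (HCD), which also holds cocoa butter and sodium cholate, a bile acid salt, so the parts of the diet cannot be told apart. The HCD was fed for 3 days, the livers were taken before any sepsis was induced, and the study used adult mice. Each liver gave 1 library of bulk RNA, in which fewer cells of a type and less RNA per cell cannot be told apart.

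In rodent liver the Cyp4a genes are classical targets of PPARα, a nuclear receptor that fatty acids and fibrate drugs activate and that pairs with RXRα on DNA. The omega-hydroxylated acid is oxidised to a dicarboxylic acid, which is then shortened in peroxisomes. Cyp4a12a and Cyp4a12b are known for higher expression in male than in female mouse liver, and Cyp4a10 and Cyp4a14 as the members that rise most when PPARα is activated. Whether the other members, Cyp4a10 and Cyp4a14 among them, also differ by sex could not be examined in these livers. The Cyp4f enzymes are best known for inactivating leukotriene B4 and other eicosanoids, and Cyp4v3 is the mouse counterpart of CYP4V2, a fatty acid hydroxylase linked to a degeneration of the retina in people.

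The libraries held 13771630 to 23129576 counts on genes, and the precision was set by the spread between livers (biological coefficient of variation 27.7%) rather than by this depth. One library, HCD replicate 1, stood apart. Xist, which female cells transcribe from the inactive X chromosome, was at 21.4 FPKM there and had no count in the other 5 livers, while the 4 Y-linked genes examined had no count there and were present in the other 5. FPKM is a level per gene length, in fragments scaled to 1 kilobase and to the library's total. The sex of each mouse is not given in the labels, and the study used both sexes. Of 22 male-biased liver genes outside the Cyp4 family, the median level in HCD replicate 1 was 3.73 log2 units below the mean of the 6 livers, against 0.24 to 1.28 above it in the others. Summed over 22 female-biased genes, that liver had 3928 CPM (counts brought to a common library total, with TMM factors) against 13.8 to 125 in the others. Diet and sex pattern cannot be told apart within this library, so the fold changes of the members and the medians of gene lists are given with and without it.

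The 6 Cyp4a genes lie within one stretch of chromosome 4 (GRCm38, GENCODE M21), from 115299046, where Cyp4a12a starts, to 115621602, where Cyp4a32 ends. Cyp4a14 is the only one of the 6 on the minus strand and lies between Cyp4a12b and Cyp4a10. To show how alike the copies are, the stretch of coding sequence around the cysteine that binds the haem iron is given here, spliced, as 93 bases from 5′ to 3′. In the Cyp4a10 line the capitals mark the cysteine codon, and in the other lines they mark the bases that differ from Cyp4a10 at the same position.
Cyp4a10 (chr4:115529478-115532582, plus strand): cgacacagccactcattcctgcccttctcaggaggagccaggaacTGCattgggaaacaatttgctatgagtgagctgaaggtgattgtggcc
Cyp4a14 (chr4:115487260-115489829, minus strand): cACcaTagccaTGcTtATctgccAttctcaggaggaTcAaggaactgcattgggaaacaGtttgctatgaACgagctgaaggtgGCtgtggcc
Cyp4a12a (chr4:115328962-115331885, plus strand): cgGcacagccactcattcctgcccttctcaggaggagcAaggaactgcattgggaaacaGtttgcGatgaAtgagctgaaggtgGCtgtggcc
Cyp4a31 and Cyp4a32 differed from Cyp4a10 at 0 of these bases, Cyp4a12a at 7 and Cyp4a14 at 16, and Cyp4a12b had the same 93 bases as Cyp4a12a. The Cyp4f genes and Cyp4v3 differed from Cyp4a10 at 33 to 37 of them. Over the whole coding sequence, Cyp4a10 was 97.2% identical to Cyp4a32 and 96.6% to Cyp4a31, Cyp4a12a was 98.5% identical to Cyp4a12b, and Cyp4a14 was 74.8% to 75.8% identical to the other 5.

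This likeness bears on the counts, since a read that matches 2 copies cannot be given to one of them. Of all 100-base words in the Cyp4a12a transcript, 64.2% occurred in no other gene's transcripts, and the rest were shared with Cyp4a12b. The share was 87.3% for Cyp4a10, 91.8% for Cyp4a31 and 79.9% for Cyp4a32. Cyp4a14, Cyp4f13, Cyp4f14 and Cyp4f15 shared no such word with any other gene. Cyp4v3 (chromosome 8, 45304944 to 45333216) shared 5.77% of its words with Gm45753, a transcript that overlaps it on the same strand. The 3 Cyp4f genes are on chromosome 17, Cyp4f15 from 32685627 to 32703352 and Cyp4f14 and Cyp4f13 side by side from 32905070 to 32947402.

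Cyp4a14 and Cyp4a10 RNA was higher in every liver of the HCD mice than in any liver of the RD mice, and edgeR called none of the other 8 members in either direction. On CPM, the diets likewise did not overlap, in either direction, for 27.6% of all genes tested. The counts of all 13105 genes with enough reads were fitted with edgeR (quasi-likelihood test), p-values were adjusted by Benjamini-Hochberg over all of them, and "called" below means an adjusted p under 0.05. All 10 members passed the filter on low counts. Cyp4a14 and Cyp4a10 were called higher and 0 members were called lower, beside 1.95% of all genes tested called higher and 3.27% called in either direction. By nominal p, meaning an unadjusted p of at most 0.05, 4 members were higher and 1 was lower, beside 11.1% and 9.81% of all genes tested. Without HCD replicate 1 the same 2 members were called higher, beside 1.58% of all genes. The median log2 fold change of the 10 members was 0.16, and 0.39 without that liver, beside 0.0074 and -0.0069 over all genes tested.

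**Figure D1:**
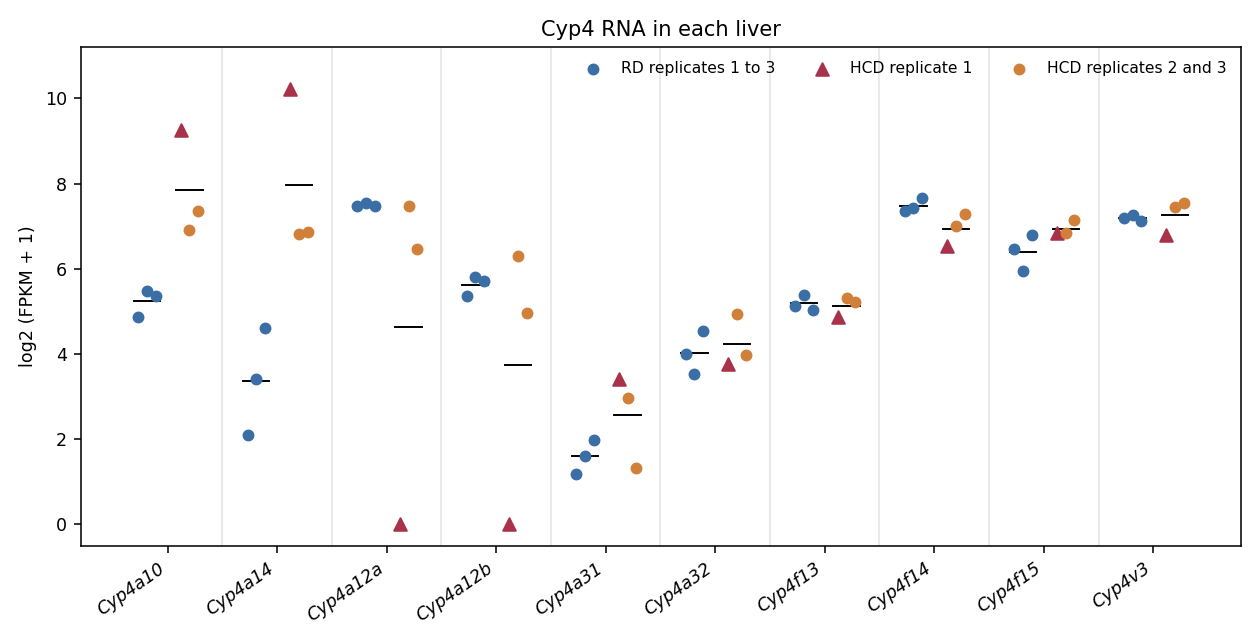
The plot gives the level of each member in each liver as log2 of FPKM plus 1, with circles for RD (left) and HCD replicates 2 and 3 (right), a triangle for HCD replicate 1, and a line at the mean of each diet on this scale. Cyp4a10 and Cyp4a14 sit higher in all 3 HCD livers than in any RD liver, and the triangle is at 0 for Cyp4a12a and Cyp4a12b and far above the other points for Cyp4a14.

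Cyp4a14 (chromosome 4, 115486200 to 115496142), an omega-hydroxylase that PPARα agonists raise, stood at 3.25, 9.66 and 23.4 FPKM in RD replicates 1, 2 and 3 and at 1191, 112 and 116 FPKM in HCD replicates 1, 2 and 3. The lowest HCD liver was thus above the highest RD liver, and the spread within each diet was wide: the highest RD liver had 7.18 times the lowest, and HCD replicate 1 had 10.4 times the mean of the other HCD livers. The means were 12.1 ± 10.3 FPKM with RD and 473 ± 622 with HCD (SD, n = 3), so the SD of the HCD livers exceeded their mean. The ratio of the means was 39.1, and 9.45 without HCD replicate 1. The fitted log2 fold change was 5.26 (SE 1.14), at rank 6 of the 13105 genes from the top. Without HCD replicate 1 it was 3.24 (SE 0.61), at rank 25. Ranked by FPKM among all listed genes, Cyp4a14 was at place 7475, 4162 and 2182 in the RD livers, 61 in HCD replicate 1, and 595 and 679 in HCD replicates 2 and 3.

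Cyp4a10 (chromosome 4, 115518264 to 115533649), the other member raised by PPARα agonists, was at 28.3, 43.5 and 40.0 FPKM in the RD livers and at 610, 119 and 164 FPKM in HCD replicates 1, 2 and 3. The RD livers lay close together and the diets did not overlap. The means were 37.3 ± 7.93 FPKM with RD and 298 ± 271 with HCD (SD, n = 3), a ratio of 7.99, or 3.80 without HCD replicate 1. The log2 fold change of Cyp4a10 was 2.96 (SE 0.57), and 1.91 (SE 0.21) without that liver. With RD, Cyp4a10 had more RNA per length than Cyp4a14 in every liver, at 8.72, 4.51 and 1.71 times its FPKM. With HCD the ratio was 0.51, 1.06 and 1.42 in replicates 1, 2 and 3, so all 3 HCD livers lay below the lowest RD liver.

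The calls of Cyp4a14 and Cyp4a10 were sensitive to the set of livers and to the fit. With all 6 livers both were lost in edgeR's robust fit, in limma on FPKM and with the replicate number as a block, and Cyp4a14 also with library sizes alone, with a mean of at least 50 counts and with a correction for gene length. Both were lost when any 1 RD liver or HCD replicate 3 was left out, with log2 fold changes from 4.81 to 6.14 for Cyp4a14 and from 2.80 to 3.25 for Cyp4a10 in those fits. Both were kept without HCD replicate 1 and without HCD replicate 2. In every one of the alternatives the log2 fold change of each stayed above 0, with a lowest value of 3.24 for Cyp4a14 and 1.91 for Cyp4a10. DESeq2, a second count test, called Cyp4a10 and Cyp4a31 higher, gave no p for Cyp4a14 because its outlier filter set that gene aside, and called 3.88% of the genes it tested higher.

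Cyp4a12a (chromosome 4, 115299046 to 115332815), the main Cyp4a enzyme of male mouse liver, was at 178, 187 and 177 FPKM in the RD livers, the tightest of all members with a coefficient of variation of 3.06%. HCD replicate 1 had 0 counts of it, which at 3 counts of that library's total allows up to 0.162 CPM for counting error, while the other 5 livers had 141 to 316 CPM. HCD replicates 2 and 3 had 176 and 87.5 FPKM. On FPKM the highest HCD liver was just below the lowest RD liver, and on CPM it was just inside their range. The log2 fold change was -1.05 (SE 1.35) and, without HCD replicate 1, -0.46 (SE 0.28), with no call in either fit. Without HCD replicate 2 it was -2.09, and over all alternatives it ran from -3.97, in limma on FPKM, to -0.46, with no call in any.

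Cyp4a12b (chromosome 4, 115411624 to 115439034), its near-identical neighbour, was at 39.8, 54.8 and 51.5 FPKM with RD and at 0, 77.3 and 30.0 FPKM in HCD replicates 1, 2 and 3. HCD replicate 2 was above and HCD replicate 3 below all RD livers. Its log2 fold change was -0.45 (SE 1.20) with all livers and 0.14 (SE 0.36) without HCD replicate 1, so its direction turned with that liver. The FPKM of Cyp4a12a was 3.41 to 4.47 times that of Cyp4a12b with RD and 2.27 and 2.91 times in HCD replicates 2 and 3, values that depend on how reads common to both were assigned. Summed as 1 gene, the 2 copies had a log2 fold change of -0.90 with all 6 livers. The sum was not fitted without HCD replicate 1, which had 0 counts of both.

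Cyp4a31 and Cyp4a32 are close copies of Cyp4a10 about which less is known, and with RD both were below it in every liver. Cyp4a31 (chromosome 4, 115563649 to 115579015) was at 1.28, 2.03 and 2.97 FPKM with RD and at 9.66, 6.76 and 1.50 FPKM in HCD replicates 1, 2 and 3. HCD replicates 1 and 2 were above all RD livers and HCD replicate 3 was within their range. Its log2 fold change was 1.50 (SE 0.59) and, without HCD replicate 1, 0.99 (SE 0.61), and it was called by DESeq2 but not by edgeR. Cyp4a32 (chromosome 4, 115600969 to 115621602) was at 15.1, 10.5 and 22.3 FPKM with RD and at 12.5, 29.5 and 14.8 FPKM with HCD, and these ranges overlapped. Its log2 fold change was 0.23 (SE 0.37), and 0.47 (SE 0.36) without HCD replicate 1.

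**Figure D2:**
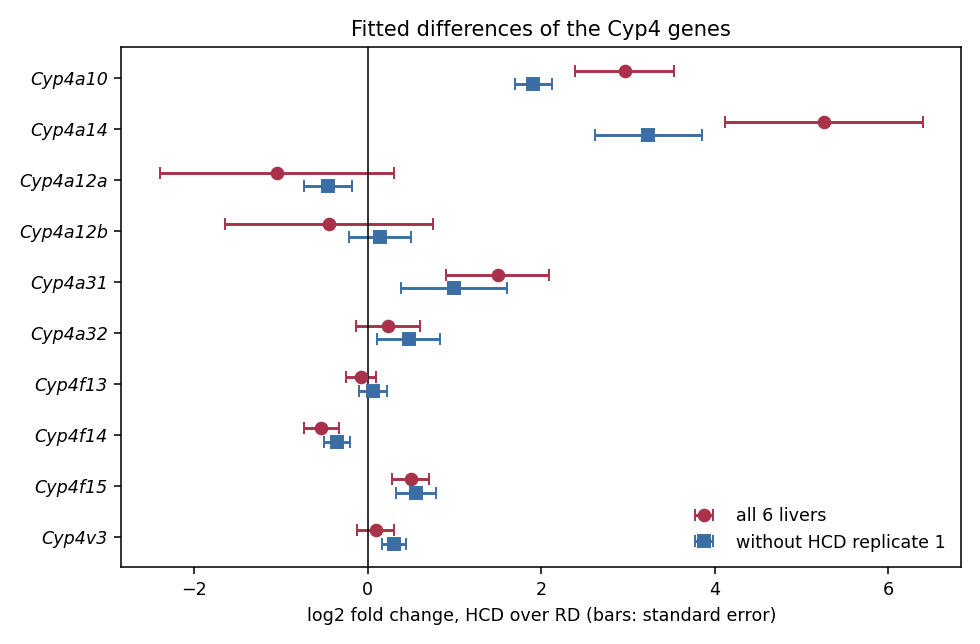
The plot gives the fitted log2 fold change of each member, HCD over RD, with its standard error as a bar, for all 6 livers (circles) and without HCD replicate 1 (squares). The standard errors were worked out from the F statistic of edgeR's test. Cyp4a14 moves from 5.26 to 3.24 and Cyp4a10 from 2.96 to 1.91, and the bars of Cyp4a12a and Cyp4a12b shorten from 1.35 to 0.28 and from 1.20 to 0.36.

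The 4 members outside the Cyp4a cluster had log2 fold changes between -0.54 and 0.49, with a median of 0.011, or 0.18 without HCD replicate 1, and edgeR and DESeq2 each called 0 of the 4, beside 3.27% and 6.97% of all genes tested. By nominal p, 1 was higher and 1 was lower, beside 11.1% and 9.81% of all genes. Cyp4f14 (chromosome 17, 32905070 to 32917342), a leukotriene B4 omega-hydroxylase, was at 163, 170 and 201 FPKM with RD and 91.9, 127 and 155 FPKM with HCD. Every HCD liver was thus below every RD liver. Its log2 fold change was -0.54 (SE 0.20), and -0.35 (SE 0.15) without HCD replicate 1, the lowest of the HCD livers.

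Cyp4f15 (chromosome 17, 32685627 to 32703352), a related hydroxylase, showed the opposite order, at 86.7, 60.2 and 111 FPKM with RD and 113, 114 and 140 FPKM with HCD. The diets did not overlap, and the gap between the highest RD and the lowest HCD liver was 110.7 against 113.4 FPKM. Its log2 fold change was 0.49 (SE 0.21), and 0.56 (SE 0.23) without HCD replicate 1. On CPM, 4 members, Cyp4a10, Cyp4a14, Cyp4f14 and Cyp4f15, had diets that did not overlap, 3 of them higher with HCD, beside 27.6% of all genes tested in either direction. Without HCD replicate 1 there were 5, 4 of them higher, beside 38.7% of all genes.

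Cyp4f13 (chromosome 17, 32924688 to 32947402), the other hydroxylase of that subfamily listed here, was at 34.1, 40.7 and 32.0 FPKM with RD and 28.2, 38.6 and 36.5 FPKM with HCD. These ranges overlapped, and its log2 fold change was -0.072 (SE 0.17), or 0.064 (SE 0.16) without HCD replicate 1. Cyp4v3, the CYP4V2 counterpart, was at 144, 152 and 138 FPKM with RD and at 109, 173 and 187 FPKM in HCD replicates 1, 2 and 3. HCD replicate 1 was below all RD livers and the other HCD livers were above them. Its log2 fold change was 0.093 (SE 0.21), and 0.30 (SE 0.14) without HCD replicate 1.

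The order of the members by mean FPKM changed between the diets. With RD it ran from Cyp4a12a (181 ± 5.53, SD, n = 3) and Cyp4f14 (178 ± 19.8), whose livers overlapped, through Cyp4v3 (145 ± 6.75) and Cyp4f15 (85.9 ± 25.2) to Cyp4a12b (48.7 ± 7.89). Cyp4a10 (37.3 ± 7.93) and Cyp4f13 (35.6 ± 4.58) followed, and the ranges of neighbours from Cyp4a12b to Cyp4f13 overlapped. At the low end were Cyp4a32 (16.0 ± 5.93) and Cyp4a14 (12.1 ± 10.3), which overlapped, and Cyp4a31 (2.10 ± 0.85). With HCD, Cyp4a14 and Cyp4a10 had the highest means, followed by Cyp4v3 (157 ± 41.4), Cyp4f14 (124 ± 31.5 FPKM) and Cyp4f15 (123 ± 15.0), and all of these neighbours overlapped. Cyp4a12a (87.8 ± 87.9 FPKM), Cyp4a12b (35.8 ± 39.0), Cyp4f13 (34.4 ± 5.52), Cyp4a32 (18.9 ± 9.21) and Cyp4a31 (5.97 ± 4.14) followed, and of these neighbours Cyp4a32 and Cyp4a31 did not overlap. Without HCD replicate 1 the highest mean was that of Cyp4v3 (180 FPKM), followed by Cyp4a10 (142) and Cyp4f14 (141), and Cyp4a14 (114) came after Cyp4a12a (132) and Cyp4f15 (127).

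Summed over the 6 Cyp4a members, the RD livers had 266, 307 and 317 FPKM and HCD replicates 1, 2 and 3 had 1823, 521 and 414 FPKM. The lowest HCD sum was above the highest RD sum, and the means were 297 ± 27.3 FPKM with RD and 919 ± 784 with HCD (SD, n = 3), a ratio of 3.10, or 1.58 without HCD replicate 1. The 4 other members summed to 428, 423 and 481 FPKM with RD and to 343, 453 and 519 FPKM with HCD. Those sums overlapped, with a ratio of the means of 0.99, or 1.09 without HCD replicate 1.

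The make-up of this Cyp4a RNA differed between the diets in every liver. Cyp4a12a held 67.0%, 60.8% and 55.8% of it in the RD livers, and 0%, 33.7% and 21.2% in HCD replicates 1, 2 and 3. Cyp4a14 held 1.22%, 3.14% and 7.37% with RD, and 65.3%, 21.6% and 28.0% with HCD. Cyp4a10 held 10.7%, 14.2% and 12.6% with RD, and 33.5%, 22.9% and 39.6% with HCD. For each of the 3 genes the HCD livers lay outside the range of the RD livers.

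**Figure D3:**
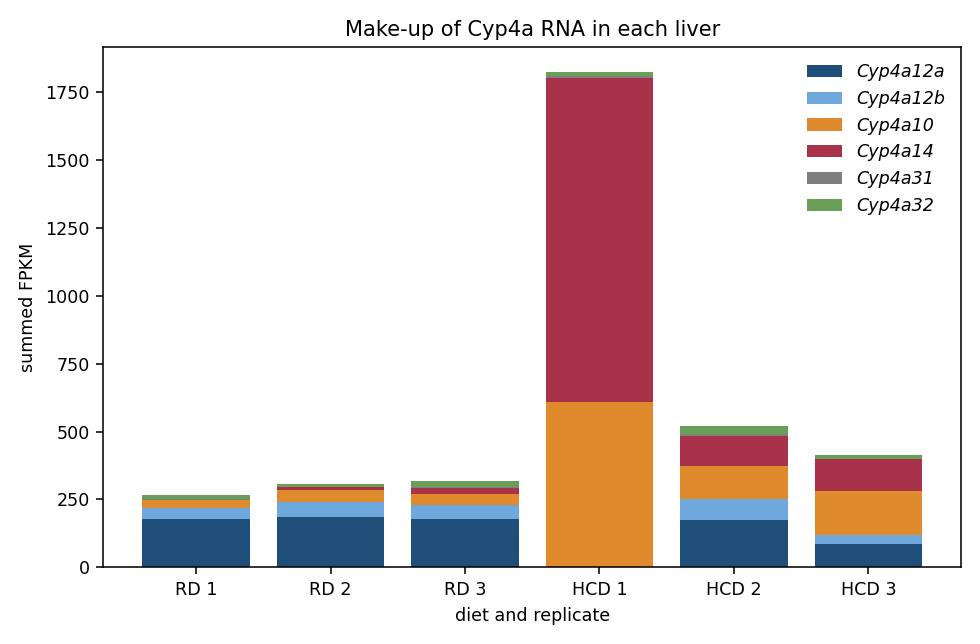
The bars give the summed FPKM of the 6 Cyp4a members in each liver, divided by gene. The RD bars of 266 to 317 FPKM are mostly Cyp4a12a, the bar of HCD replicate 1 reaches 1823 FPKM and holds no Cyp4a12a or Cyp4a12b, and HCD replicates 2 and 3 hold all 4 abundant members.

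The tables list 8 further Cyp4 genes, all scarce in these livers, and edgeR and DESeq2 called 0 of them, beside 3.27% and 6.97% of all genes. Of the 4 that edgeR tested, 1 was lower by nominal p, beside 9.81% of all genes. Cyp4f17 was the most abundant, at 11.6 ± 1.33 FPKM with RD and 7.94 ± 1.16 with HCD (SD, n = 3), with a log2 fold change of -0.57 (adjusted p = 0.150 in edgeR's test), or -0.47 without HCD replicate 1. Cyp4b1, known mainly from lung, was at 5.70 ± 3.26 and 5.69 ± 1.65 FPKM, with a log2 fold change of -0.026, or -0.20 without HCD replicate 1. Cyp4f16 and Cyp4f39 were tested too, with log2 fold changes of -0.36 and 1.46 (adjusted p = 0.679 and 0.426), or -0.69 and 1.72 without that liver, and the median of the 4 genes tested was -0.19, or -0.34 without it. Cyp4f18, the pseudogenes Cyp4f41-ps and Cyp4a28-ps and the antisense transcript Cyp4x1os had too few counts to test, with at most 0.86 FPKM in any liver.

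Other targets of PPARα were examined beside the Cyp4a genes. Of 34 such genes outside the family, 32 were tested, and 5 were called higher and 0 lower in edgeR's test, against 9 higher and 0 lower in DESeq2. These stand beside 1.95% of all genes called higher by edgeR and 3.88% by DESeq2. By nominal p, 12 were higher and 1 was lower, beside 11.1% and 9.81% of all genes. The median log2 fold change of the list was 0.29, or 0.16 without HCD replicate 1, and 24 of the 32 were above 0, or 22 without that liver. The called genes with the largest rises were acyl-CoA thioesterases, which cut fatty acids from coenzyme A. Acot2 rose by a log2 fold change of 2.72 (SE 0.53, adjusted p = 0.0354), Acot1 by 2.30 (SE 0.35, adjusted p = 0.0184) and Acot4 by 1.91 (SE 0.39, adjusted p = 0.0410). Without HCD replicate 1 these log2 fold changes were 2.06, 2.03 and 1.37. They are neighbouring paralogs, and the reads they may share were not measured.

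The other called members of the list were Ehhadh, the bifunctional enzyme of peroxisomal beta-oxidation, at 1.79 (SE 0.27, adjusted p = 0.0184), and Acaa1b, the peroxisomal thiolase, at 1.21 (SE 0.20, adjusted p = 0.0254). Ehhadh was at 98.7, 112 and 126 FPKM with RD and at 436, 504 and 242 FPKM in HCD replicates 1, 2 and 3, and these did not overlap. HCD replicate 1 was not the highest liver for Ehhadh or Acaa1b, as it was for Cyp4a14. Without HCD replicate 1, 4 of the 5 were called and Acot2 was not (adjusted p = 0.0654), beside 1.58% of all genes called higher. In that fit the log2 fold changes were 1.73 for Ehhadh and 1.21 for Acaa1b. All 5 lost their calls when any 1 RD liver was left out, so that the count over the fits without 1 liver ran from 0 to 4. Acot4 also lost its call without HCD replicate 2 or HCD replicate 3, and Acot2 without HCD replicate 3. Classical members that were not called included Cpt1a, at a log2 fold change of -0.35 (adjusted p = 0.306), and Fabp1 at -0.44 (adjusted p = 0.187), both at -0.50 without HCD replicate 1. Acot3 was at 0.14, 0.79 and 0.094 FPKM with RD and at 55.1, 1.86 and 2.37 FPKM with HCD, with HCD replicate 1 far above the rest, and was not called (adjusted p = 0.0739).

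**Figure D4:**
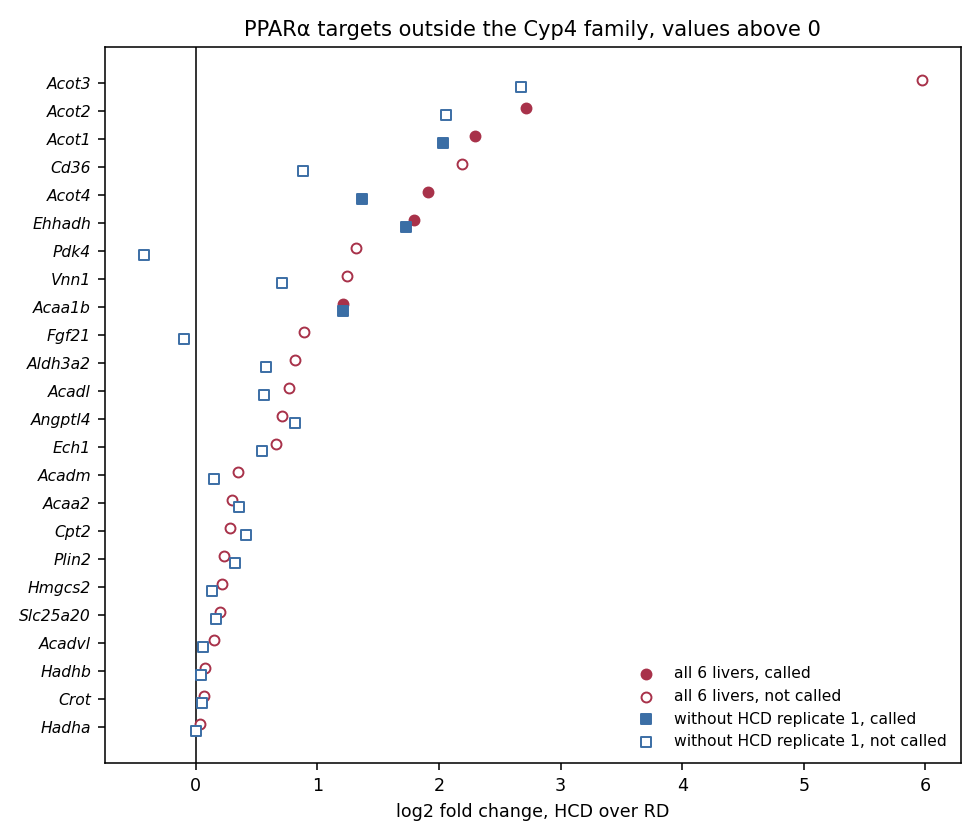
The plot gives the log2 fold change, HCD over RD, of the 24 tested PPARα targets outside the Cyp4 family whose value over all livers was above 0 (the others are not drawn), with circles for all 6 livers and squares without HCD replicate 1, filled where the gene was called. The 5 filled circles are Acot2, Acot1, Acot4, Ehhadh and Acaa1b, and Acot3 moves from 5.97 to 2.67 without HCD replicate 1.

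Among 14 receptors and regulators tested, Rxra, which encodes RXRα, the partner of PPARα, was called lower by edgeR and 0 were called higher. DESeq2 called 1 gene of this list lower and 0 higher, beside 6.97% of all genes in either direction. Of all genes, edgeR called 1.32% lower and 1.95% higher. By nominal p, 1 was higher and 3 were lower, beside 11.1% and 9.81% of all genes, and the median log2 fold change was -0.12, or -0.19 without HCD replicate 1. Rxra was at 139, 147 and 128 FPKM with RD and 82.3, 87.5 and 91.8 FPKM with HCD, with a log2 fold change of -0.68 (SE 0.14, adjusted p = 0.0449). The call was lost when any 1 of the 6 livers was left out, with log2 fold changes of -0.75 to -0.62 and adjusted p = 0.0661 without HCD replicate 1. Ppara itself was at 19.8, 22.9 and 15.7 FPKM with RD and 25.1, 22.5 and 18.0 FPKM with HCD, and its log2 fold change was 0.14 (adjusted p = 0.707), or 0.047 without HCD replicate 1.

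Microsomal P450 enzymes draw electrons from the reductase Por and from cytochrome b5. edgeR called 0 of 4 genes listed for the reductase, cytochrome b5 and related proteins, not all of which need serve microsomal enzymes. By nominal p 2 of the 4 were higher and 2 lower, while DESeq2 called all 4. These stand beside 3.27% of all genes called in either direction by edgeR, 6.97% by DESeq2, and 11.1% higher and 9.81% lower by nominal p. The log2 fold changes were 0.93 for Por (adjusted p = 0.127 in edgeR's test), 0.66 for Cyb5a (0.102), -0.48 for Cyb5b (0.126) and -0.86 for Cyb5r3 (0.0552), or 0.63, 0.69, -0.44 and -0.73 in the same order without HCD replicate 1. The median was 0.089, or 0.094 without that liver. Cyb5r3 was called lower by edgeR without HCD replicate 3. Por was at 67.4, 58.4 and 96.8 FPKM with RD and at 200, 139 and 90.5 FPKM in HCD replicates 1, 2 and 3. Its HCD replicate 3 fell within the RD range, unlike Cyp4a10 and Cyp4a14 in the same liver.

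Of 14 genes that act on the hydroxylated acid, through oxidation to the dicarboxylic acid and its shortening in peroxisomes, Ehhadh and Acot4 were called higher and 0 lower, beside 1.95% of all genes higher. By nominal p, 4 were higher and 0 lower, as in DESeq2, beside 11.1% and 3.88% of all genes higher, and the median log2 fold change was -0.10, or -0.038 without HCD replicate 1. The 4 alcohol dehydrogenases of the list did not share a direction and none was called. On the log2 fold change scale Adh1 was at 0.76 (adjusted p = 0.0876), Adh4 at -0.36, Adh5 at -0.068 and Adh7 at -0.19, or at 0.83, -0.045, -0.058 and -0.070 without that liver. Aldh3a2, which oxidises fatty aldehydes, was at 0.81 (adjusted p = 0.0793), or 0.58 without that liver. Of 6 leukotriene genes 4 were tested, and 0 were called by edgeR, by DESeq2 or by nominal p. These stand beside 3.27% of all genes called in either direction by edgeR, 6.97% by DESeq2, and 11.1% higher and 9.81% lower by nominal p. The median log2 fold change of the 4 leukotriene genes was 0.44, or 0.28 without HCD replicate 1. Of these, Lta4h, which makes leukotriene B4, had the highest level, with a log2 fold change of -0.28 (adjusted p = 0.363), and Ptgr1 (0.52, adjusted p = 0.392) and Alox5ap (0.50, adjusted p = 0.823) were scarcer. Without HCD replicate 1 these were at -0.15, 0.49 and 0.084.

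The sex-biased lists moved with HCD replicate 1. Of the 22 male-biased genes, 2 were called lower, beside 1.32% of all genes. They were Moxd1 (log2 fold change -5.88, adjusted p = 0.0134) and Ugt2b38 (-1.88, adjusted p = 0.0354), at -5.16 and -1.59 without HCD replicate 1. Without that liver 5 were called lower, beside 1.03% of all genes, and over the fits without 1 liver the count ran from 0 to 5. Moxd1 lost its call without RD replicate 1 or HCD replicate 3, and Ugt2b38 without any 1 RD liver or HCD replicate 3. The 22 genes had a median log2 fold change of -0.97, or -0.41 without HCD replicate 1. Of the 22 female-biased genes 8 were tested and 0 were called, beside 3.27% of all genes in either direction. DESeq2 gave an adjusted p for 5 of the 22 and called 0, beside 6.97% of all genes. By nominal p 1 was higher and 0 lower, beside 11.1% and 9.81% of all genes. Without HCD replicate 1 0 were higher and 4 lower by nominal p, beside 1365 of 13105 genes higher and 9.74% lower. Their median log2 fold change was 1.69, with 7 of 8 above 0, and without HCD replicate 1 it was -1.94, with 1 of 8 above 0. The most abundant of them, Sult2a2, Sult2a1 and Cyp2a4, were at 1704, 1172 and 570 FPKM in HCD replicate 1 and at no more than 4.85 FPKM elsewhere. The Cyp4a14 and Cyp4a10 values of HCD replicates 2 and 3 were above those of all RD livers, as given above. The part of the sex pattern in the Cyp4a values of any liver was not tested.

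The liver identity of the samples was plain from hepatocyte markers, with Alb at 39320 to 67650 FPKM, and edgeR called 0 of the 9 (1 higher by nominal p and in DESeq2, beside 11.1% and 3.88% of all genes), with a median log2 fold change of -0.23, or -0.049 without HCD replicate 1. The summed level of the 8 Kupffer cell markers was 113 to 190 CPM with RD and 358, 316 and 150 CPM in HCD replicates 1, 2 and 3. edgeR called 0 of the 8, DESeq2 called 2 higher, and 3 were higher by nominal p, beside 1.95%, 3.88% and 11.1% of all genes higher. All 8 had log2 fold changes above 0 (median 0.91, or 0.62 and 7 of 8 without HCD replicate 1). The most abundant of them were Clec4f (log2 fold change 0.82), Cd5l (1.21) and Csf1r (0.56), at 0.63, 0.96 and 0.29 without HCD replicate 1. The part of Kupffer cells in the Cyp4 values was not tested.

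Endothelial markers summed to 116 to 206 CPM with RD and 148 to 240 CPM with HCD, with Clec4g, Fcgr2b and Kdr the most abundant. Stellate cell markers, led by Ecm1, Dcn and Reln, summed to 330.2 to 385 CPM with RD and 364 to 594 CPM with HCD. Cholangiocyte markers, led by Spp1, Sox9 and Krt19, summed to 37.6 to 93.2 CPM with RD and 65.9 to 98.6 CPM with HCD. Leukocyte markers, with Ptprc and S100a9 the most abundant, summed to 6.78 to 12.6 CPM with RD and 9.24 to 17.1 CPM with HCD. edgeR and DESeq2 called 0 genes of these 4 lists, beside 3.27% and 6.97% of all genes, and by nominal p 1 stellate cell gene was higher, beside 11.1%. Without HCD replicate 2, Dcn was called higher. The medians of all 4 lists were above 0. All 8 stellate cell genes had log2 fold changes above 0 (median 0.50, or 0.28 and again 8 of 8 without HCD replicate 1), as did 7 of 8 endothelial genes (median 0.24, or -0.0037 and 4 of 8 without it). The median was 0.62 for cholangiocyte genes, or 0.57 without HCD replicate 1, and 0.10 for leukocyte genes, or -0.13 without it. The part of these cells in the Cyp4 values was not tested.

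The genes whose levels ran most like those of Cyp4a14 and Cyp4a12a were found by Pearson's r of log2 (CPM + 0.5) over the 6 livers, among the 9116 genes whose mean reached 5 CPM. These values describe 6 livers that share 1 outlying library, and carry no test, and they were not worked out without it. For Cyp4a14 they were Rragc, Maf, Il18bp, Hacl1 and Acot4, with r from 0.989 to 0.993, and 270 genes reached 0.9. Their ranges were much narrower than that of Cyp4a14: Rragc was at 13.6 to 16.2 FPKM with RD and 17.6 to 23.1 FPKM with HCD, and Hacl1, a peroxisomal lyase, at 5.87 to 9.50 and 13.8 to 28.3 FPKM. For Cyp4a12a they were Hsd3b5, C1ra, Slco1a1, Ddx3y and Cyp4a12b, with r from 0.995 to 0.998, and 240 genes reached 0.9. Hsd3b5 and Slco1a1 are male-biased liver genes and Ddx3y is on the Y chromosome, and these 3 were at 0.098, 0.92 and 0 FPKM in HCD replicate 1.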

How the data were processed

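Liver RNA was isolated with the RNeasy Kit and sequenced by Novogene in 6 libraries, 3 of RD mice and 3 of HCD mice, grouped by the sample labels. The authors deposited read counts per gene, as whole numbers without normalization, and FPKM, scaled by gene length and by a library total that is not stated. The log2 fold changes, p-values and adjusted p-values that the authors deposited compare the same diets and were not used. The submitters' processing notes name STAR, HTSeq, DESeq2, edgeR and the build GRCm39, with no versions. The library kit and strand are not given in the sources used here. Lengths worked out from counts and FPKM matched the exon lengths of GENCODE M21 (GRCm38), within 0.1%, for 95.0% to 95.1% of genes, and positions and sequences are from M21.

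edgeR 4.0.16 in R 4.3.3 was run on the counts. filterByExpr by diet left 13105 genes, TMM factors were 0.886 to 1.07, and glmQLFit and glmQLFTest of diet had no covariates. The SE of an edgeR log2 fold change was not given by the fit. It was worked out as the absolute log2 fold change divided by the square root of the test's F statistic. The p-values measure the spread between these 6 livers. An exact permutation test of 3 livers against 3 could not go below p = 0.10 and was not used. Totals were 20160450, 13771630 and 23129576 counts in RD replicates 1 to 3 and 18545549, 14823396 and 13935491 in HCD replicates 1 to 3. A count of 0 allows up to 0.130 to 0.218 CPM (3 counts of the total), for counting error only.

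The members and gene lists were chosen with earlier results of these data known. Named were all members, every other listed Cyp4 gene, the called genes of each list (at most the 3 largest rises and falls), or its 3 most abundant where none was called, and the 5 genes most like Cyp4a14 and Cyp4a12a. Acaa1b, Acot3, Cpt1a, Fabp1, Ppara, Por, the alcohol dehydrogenases and Aldh3a2 fall outside this rule and were chosen after their values were seen. Some genes that fall under this rule are not reported here. Coding sequences were aligned with Biopython 1.88, and 100-base words of the longest coding transcript were sought in all M21 transcripts. The plots used matplotlib 3.10.9 under Python 3.11.15. Alternatives tried were DESeq2 1.42.0 with and without its Cooks cutoff, limma 3.58.1 on FPKM, a robust fit, other scalings and filters, a correction of the trend with gene length, the replicate block, summed copies, each liver left out, and, chosen after seeing the data, the unadjusted p.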

Additional observations from a re-analysis of the deposited data

How the results depend on the processing

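The number of genes called, 428, was 992 with DESeq2, 1011 without its Cooks cutoff, 649 with no filter on low counts, 251 with the length-trend correction and 2739 at an unadjusted p of at most 0.05, a setting chosen after seeing the data. Leaving out 1 liver gave 39 to 387. The number of members called, 2, was 1 with library sizes alone, with a mean of at least 50 counts and with the length-trend correction, 0 with the robust fit and with limma on log2 of FPKM plus 1 or 0.1, 5 by unadjusted p, and 0 to 2 with 1 liver left out. DESeq2 without its Cooks cutoff called 3 members. The cause of these differences was not tested.

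The call of Cyp4a14 ended with library sizes alone, the mean of at least 50 counts and the length-trend correction, where its log2 fold change was 5.31, 5.28 and 5.20. The calls of both Cyp4a14 and Cyp4a10 ended with the robust fit, in both limma fits, and without any 1 RD liver or HCD replicate 3. With 1 liver left out, 4 members turned direction. Cyp4a12b ran from -1.76 to 0.14 (without HCD replicate 1), Cyp4a32 from -0.27 (without HCD replicate 2) to 0.53, Cyp4f13 from -0.18 to 0.064 (without HCD replicate 1, and 0.051 with RD replicate 2 left out), and Cyp4v3 from -0.050 (without HCD replicate 3, and -0.0053 with HCD replicate 2 left out) to 0.30. The median of the members ran from -0.095 without HCD replicate 2 to 0.39 without HCD replicate 1. With copies summed, the log2 fold change was 2.60 for Cyp4a10 with Cyp4a31 and Cyp4a32, and -0.90 for Cyp4a12a with Cyp4a12b.

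With the replicate number as a replicate block, 136 genes and 0 members were called, with log2 fold changes of 4.36 for Cyp4a14 and 2.57 for Cyp4a10. The labels do not say that a number is shared by mice, same-numbered livers correlated at -0.084, 0.12 and -0.030, and livers did not all correlate best with their own number. With 3 livers a diet, 1 of which carries the other sex pattern, the spread between livers limits what these data can show.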
